A study of Mus musculus with 224 samples.

Results

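The 10 genes described here encode the enzymes that split stored or circulating triglyceride and the proteins that switch them on or off: Pnpla2, Pnpla3, Lipe, Mgll, Abhd5, G0s2, Lpl, Lipc, Lipg and Lipa. They were taken by name, through the Ensembl IDs of the liver, soleus and fat tables, and not by how they behaved. All 10 had a row among the 12611 genes of the liver table and the 16542 genes of the fat table. In soleus 9 of them were among the 13637 genes, and Lipg had no row. RNA sequencing covered 3 tissues, liver, soleus and visceral fat, of 72 mice from the inbred strains DBA/2J, BALB/cJ and C57Bl/6J. Mice ate a high-fat diet (HFD), with regular chow (RC) for the controls, and by the sample labels were sampled on day 5, 13 or 33. The series description writes the last time as 13 days as well, and the sample labels were used. There were 18 groups, with 4 animals per tissue in each, so a strain on one diet held 12. No animal carried a transgene or drug treatment by the labels, and the composition of the diets was not given in the sources used here. In all 216 libraries were used, and 8 repeat liver libraries of 4 animals were not analysed here.

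Triglyceride in a cell is broken down in steps on the surface of lipid droplets. Adipose triglyceride lipase, the product of Pnpla2, removes the first fatty acid, hormone-sensitive lipase (Lipe) acts on the diglyceride that results, and monoglyceride lipase (Mgll) releases the last fatty acid and glycerol. Abhd5 is the co-activator of adipose triglyceride lipase and G0s2 its inhibitor, while Pnpla3 is a related droplet protein. Outside the cell, lipoprotein lipase (Lpl) works on the capillary wall, hepatic lipase (Lipc) on the liver sinusoid and endothelial lipase (Lipg) mainly on the phospholipids of high-density lipoprotein. Lysosomal acid lipase (Lipa) degrades lipid taken up into lysosomes. Fasting and adrenergic signals raise lipolysis in fat, and insulin lowers it.

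Values are log2 CPM, the base-2 logarithm of counts scaled to library size, as deposited. A difference is HFD minus RC unless another pair is named, with its standard error (SE) from limma. A call is an adjusted p below 0.05, by the Benjamini-Hochberg method over all genes of the tissue. Libraries held 18.08 to 31.99 M reads in liver (M, mega), 19.95 to 33.37 M in soleus and 19.78 to 46.8 M in fat. Every animal is 1 library per tissue, so the p-values measure spread between animals. The genome build, GRCm38, derives from C57BL/6J, so sequence differences between strains can enter the strain comparisons. In bulk tissue, fewer cells of a type and less RNA per cell cannot be told apart.

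The tissues matched their labels by marker genes, with 3 libraries that stand apart. The mean of 6 hepatocyte markers was 12.67 to 13.58 log2 CPM in liver, -3.11 to 9.27 in soleus and -1.47 to 8.81 in fat. In fat, the BALB/cJ HFD animals titled 3HF201 (day 5) and 3HF208 (day 33) had insulin gene Ins2 at 17.81 and 18.39 log2 CPM, where the other 70 fat libraries had at most 8.19. Their Adipoq levels of 2.79 and 3.61 were below the lowest of the others, 9.12. Of 12 genes that mark a strain, 3HF201 was on the DBA/2J side in 11 and 3HF208 on the C57Bl/6J side in 10, against the BALB/cJ label. Fat levels are therefore given without these 2 libraries. Fat tests are given with all libraries unless stated, and also without the 2. In soleus, animal 1RC210 (C57Bl/6J on RC, day 33) had a mean of 4.88 for 6 slow fibre markers, where the median library had 11.53. Its fast fibre mean was 13.58 and the median 11.36, and its adipocyte marker mean of 1.23 was the lowest. Results that this library moves are also given without it.

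Of the 8 genes with a promoter window in the RefSeq table used here (GRCm38.p6, 250 bases before to 50 after each annotated start), Mgll and Lipe are shown because they were the 2 whose windows held a motif searched here. Both transcripts rose on HFD in soleus, and so did Pnpla2 and Pnpla3, which held none. Each has a pair of annotated starts, and 3 of these 4 windows held at least 1 of 2 motifs searched on both strands. The motifs were CACGTG, an E-box core, and GTAAACA, a forkhead core, and they do not overlap. Capitals mark them. The window chr6:88724162-88724461 (plus strand) of Mgll held both, and the Lipe windows chr7:25395938-25396237 and chr7:25390063-25390362 (minus strand) held 1 each.
Mgll: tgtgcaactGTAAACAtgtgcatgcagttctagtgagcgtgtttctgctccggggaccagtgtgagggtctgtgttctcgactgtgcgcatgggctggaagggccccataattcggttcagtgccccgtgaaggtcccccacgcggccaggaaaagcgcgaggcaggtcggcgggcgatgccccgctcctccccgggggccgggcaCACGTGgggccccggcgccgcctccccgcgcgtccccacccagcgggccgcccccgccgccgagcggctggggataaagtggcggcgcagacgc
Lipe, upstream start: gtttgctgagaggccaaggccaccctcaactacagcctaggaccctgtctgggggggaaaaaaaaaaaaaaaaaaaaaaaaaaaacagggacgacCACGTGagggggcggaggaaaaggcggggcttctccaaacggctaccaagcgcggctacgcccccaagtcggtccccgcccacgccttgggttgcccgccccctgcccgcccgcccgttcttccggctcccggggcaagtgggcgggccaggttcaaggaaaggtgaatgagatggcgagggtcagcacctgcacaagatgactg
Lipe, downstream start: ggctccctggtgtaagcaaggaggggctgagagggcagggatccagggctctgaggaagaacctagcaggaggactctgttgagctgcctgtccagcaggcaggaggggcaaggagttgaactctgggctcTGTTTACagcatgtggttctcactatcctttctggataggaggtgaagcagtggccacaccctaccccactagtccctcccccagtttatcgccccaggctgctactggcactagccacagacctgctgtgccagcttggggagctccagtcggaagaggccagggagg
The E-box letters were in 7.15% and the forkhead letters in 3.65% of all 32851 windows of the same length. All windows of the other 6 genes held neither, the Pnpla2 window at chr7:141454938-141455237 among them. A match of letters is a description of the sequence, not of binding.

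Levels per length set the tissues apart. Per kilobase (kb) of exon, Lpl was highest in soleus and fat, and Lipc, its liver counterpart, was highest in liver. In liver, Lipc stood at 6.42 ± 0.23 log2 CPM per kb (SD, n = 72), G0s2 at 5.95 ± 1.37, Mgll at 5.57 ± 0.49, Lipa at 5.16 ± 0.30 and Pnpla2 at 4.73 ± 0.43. Each of these 5 was within the larger SD of its neighbour. A step of 2.05 then led to Abhd5 at 2.68 ± 0.34 and a step of 1.00 to Lipg at 1.68 ± 0.85. Lipe (1.62 ± 0.57), Lpl (1.10 ± 1.06) and Pnpla3 (0.40 ± 1.55) followed without a step beyond their spread. Pnpla3 had the widest range of the 10 in liver, -3.05 to 4.18 log2 CPM per kb, and G0s2 spanned 3.38 to 9.41.

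In soleus, Lpl stood at 8.26 ± 0.40 log2 CPM per kb (SD, n = 72), above Pnpla2 at 7.23 ± 0.35, and both steps down, 1.03 to Pnpla2 and 2.21 to Mgll, were beyond the spread. Mgll (5.02 ± 0.45) and G0s2 (4.71 ± 0.83) did not differ beyond it, nor did Lipe (3.41 ± 0.50) and Abhd5 (3.36 ± 0.11). Pnpla3 (2.54 ± 0.78), Lipa (1.24 ± 0.42) and Lipc (-2.98 ± 1.95) each came a step lower. Abhd5 was the steadiest of the 9, between 3.11 and 3.59 in all 72 libraries. Lipc had a median of 2.5 reads per library and 328 at most, and its deviations from group means followed the hepatocyte marker mean (r = 0.91 over 72 libraries). Its soleus level is therefore given only as that of a gene near the detection limit.

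In fat (70 libraries), Lpl at 9.29 ± 0.88 log2 CPM per kb, Pnpla2 at 8.86 ± 0.87, Pnpla3 at 8.17 ± 1.14, Lipe at 7.69 ± 0.94, Mgll at 7.35 ± 1.00 and G0s2 at 6.81 ± 1.05 formed a run with no step beyond the spread. Abhd5 (4.52 ± 0.76) and Lipa (3.66 ± 0.23) came lower, and Lipg (-0.22 ± 1.43) and Lipc (-0.72 ± 1.56) lowest. Pnpla3 was last of 10 in liver, seventh of 9 in soleus and the third of 10 in fat. Tables were normalized separately, so levels across tissues are set side by side without a test.

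**Figure D1:**
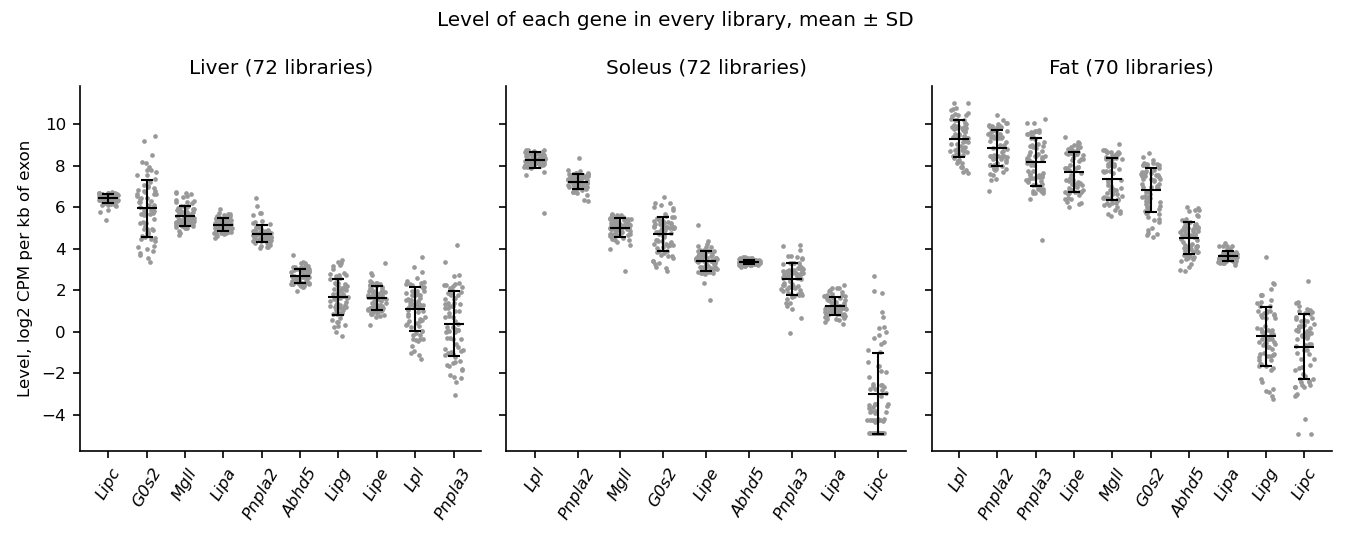
Level of each gene per kb of exon (log2 CPM per kb, vertical axis), ordered from high to low within liver, soleus and fat; grey points are single libraries (72, 72 and 70), black marks the mean ± SD. Lipc leads in liver at 6.42, and Lpl leads in soleus at 8.26 and in fat at 9.29.

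In soleus, 4 of the 9 measured genes rose on HFD and none fell: the 3 enzymes that act in turn on a droplet, Pnpla2, Lipe and Mgll, and the droplet protein Pnpla3. Over all genes of the tissue 17.4% were called in this comparison. The median difference of the 9 genes was 0.21 on the log2 scale, beside 0 for all genes. Pnpla2, Lipe and Mgll were each higher on HFD in all 9 combinations of strain and day.

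Pnpla2, which starts the breakdown of stored triglyceride, had a lowest, median and highest level of 8.42, 9.0 and 9.97 log2 CPM in the 36 HFD animals, against 7.88, 8.64 and 9.31 in the 36 RC animals. The ranges overlapped, with the HFD median inside the upper part of the RC range. The difference was 0.36 (SE 0.06), with adjusted p = 7.16e-06 by limma. By strain it was 0.26 in DBA/2J, 0.23 in BALB/cJ and 0.60 in C57Bl/6J, and in C57Bl/6J alone it passed the test (adjusted p = 3.09e-05). The test of whether the diet difference varied with strain gave adjusted p = 0.121. In C57Bl/6J the HFD animals had 8.67, 8.93 and 9.19 log2 CPM and the RC animals 7.88, 8.40 and 8.75, so the groups met only at their edges.

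Mgll, the enzyme of the last step, had 6.67, 7.62 and 8.03 log2 CPM on HFD and 5.27, 7.31 and 7.83 on RC (lowest, median and highest of 36 animals each). The lowest value belonged to the RC library with few slow fibre transcripts. The difference was 0.41 (SE 0.06, adjusted p = 3.85e-07, limma), and Mgll was the only one of the 9 genes called in each strain. It was 0.34 in DBA/2J (adjusted p = 0.0212), 0.35 in BALB/cJ (adjusted p = 0.0167) and 0.55 in C57Bl/6J (adjusted p = 0.000107). On day 13 the 4 HFD animals lay above the 4 RC animals in all 3 strains. In DBA/2J on that day they had 7.72, 7.89, 7.96 and 8.03 log2 CPM on HFD, against 7.30, 7.40, 7.44 and 7.54 on RC.

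Lipe, hormone-sensitive lipase, had 5.43, 6.12 and 7.72 log2 CPM on HFD and 4.10, 5.76 and 6.79 on RC. The ranges overlapped for most of their length. The difference over all animals was 0.36 (SE 0.09, adjusted p = 0.00428, limma). In no single strain did it pass the test, with 0.41 in DBA/2J, 0.19 in BALB/cJ and 0.49 in C57Bl/6J. With 1 of 24 animals left out in turn, these were 0.25 to 0.50, 0.09 to 0.24 and 0.37 to 0.56. A call then appeared for 2, 0 and 3 of the animals left out. The largest single value, 7.72, came from DBA/2J HFD animal 2HF201 on day 5, the library with the highest adipocyte marker mean.

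Pnpla3 had 1.87, 3.39 and 4.81 log2 CPM on HFD and 0.59, 3.22 and 4.19 on RC, with a difference of 0.37 (SE 0.13, adjusted p = 0.0366, limma) that was lost on leaving out any of 13 of the 72 animals in turn. Within the ranges of animal numbers, which the labels do not explain, it was 0.83 in the lower range (29 animals), 0.18 in the middle (18) and -0.26 in the upper (20), so its direction turned. By strain the Pnpla3 difference was 0.95 in DBA/2J (SE 0.22, adjusted p = 0.00324), 0.36 in BALB/cJ and -0.20 in C57Bl/6J. The limma test of a difference between strains gave adjusted p = 0.035. Leaving out any of 10 of the 72 animals ended that call. In DBA/2J the HFD animals had 2.00, 3.35 and 4.57 log2 CPM and the RC animals 0.59, 2.40 and 3.48.

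In soleus the adipocyte marker mean had a higher median on HFD than on RC in 2 of 3 strains. The ranges on the diets overlapped in each strain, and the difference was not tested. The mean of 7 adipocyte markers was 2.92, 4.16 and 6.80 log2 CPM in HFD animals, against 1.23, 3.84 and 5.02 in RC animals (lowest, median and highest). Medians on HFD and RC were 3.88 and 3.0 in DBA/2J, 4.59 and 4.09 in BALB/cJ, and 3.84 and 3.90 in C57Bl/6J. The deviations of Lipe from its group means followed those of this marker mean with r = 0.77 over 72 libraries, and those of Pnpla3 with r = 0.70, while Mgll had r = 0.45 and Pnpla2 r = 0.24. All points share the libraries and their depth. With the marker mean as a covariate, an alternative chosen after seeing the data, the difference was 0.32 for Pnpla2 (adjusted p = 0.000164) and 0.34 for Mgll (adjusted p = 1.69e-05, limma). For Lipe it was 0.16 (adjusted p = 0.101) and for Pnpla3 0.12 (adjusted p = 0.488). In DBA/2J alone the covariate gave 0.20 for Mgll and 0.48 for Pnpla3, and both calls were lost. The Pnpla3 test of a difference between strains then gave adjusted p = 0.0606 (limma). Whether adipocytes in the samples account for the Lipe and Pnpla3 differences was not tested beyond these values.

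The diet difference of G0s2, the inhibitor of adipose triglyceride lipase, varied between strains. Over the 3 days it passed the test in DBA/2J alone, where G0s2 was lower on HFD. In DBA/2J soleus the HFD animals had 2.93, 3.70 and 4.89 log2 CPM and the RC animals 4.52, 5.10 and 5.77 (lowest, median and highest of 12 each). By day, DBA/2J animals had 4.15, 4.78, 4.85 and 4.89 on HFD against 4.80, 4.94, 5.02 and 5.13 on RC on day 5. On day 13 they had 2.93, 3.46, 3.69 and 3.71 on HFD against 5.11, 5.20, 5.36 and 5.77 on RC, and on day 33 3.19, 3.5, 3.58 and 4.39 on HFD against 4.52, 4.78, 5.08 and 5.18 on RC. The groups did not overlap on days 13 and 33. The DBA/2J difference was -1.15 (SE 0.23, adjusted p = 0.000581, limma).

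In the other two strains the G0s2 difference over the 3 days was above 0 and did not pass the test. In BALB/cJ it had 2.75, 5.16 and 6.27 log2 CPM on HFD and 3.10, 4.22 and 6.01 on RC (difference 0.56, adjusted p = 0.0992). In C57Bl/6J it had 3.37, 4.71 and 5.48 on HFD and 2.86, 3.91 and 4.86 on RC (difference 0.67, adjusted p = 0.0789). The test of the difference between strains gave adjusted p = 0.000185, and over all animals the difference was 0.03 (adjusted p = 0.91). On day 5 the 4 BALB/cJ HFD animals, at 5.83, 5.90, 6.01 and 6.27, lay above the 4 RC animals, at 3.98, 3.99, 4.21 and 5.29, a difference of 1.64 (adjusted p = 0.0138). On day 13 they had 2.75, 3.06, 4.61 and 4.84 on HFD and 3.10, 4.05, 4.66 and 5.04 on RC (difference -0.40), and on day 33 4.80, 4.97, 5.35 and 5.64 on HFD and 4.14, 4.24, 4.55 and 6.01 on RC (difference 0.45). The BALB/cJ value over the 3 days thus came mostly from day 5.

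The strain comparisons of the diet difference called 3 of 9 genes in DBA/2J soleus (Pnpla3, Mgll and G0s2; 8.73% of all genes), 1 in BALB/cJ (Mgll; 11.5%) and 2 in C57Bl/6J (Pnpla2 and Mgll; 5.75%). A variation of the diet difference with strain was called for 2 of 9, G0s2 and Pnpla3, beside 9.83% of all genes. A variation with day was called for 0 of 9, beside 0.99% of all genes, with limma and with voom weights. At an unadjusted p below 0.05, 3 of the 9 passed that test.

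Of the other members, Abhd5, the co-activator, differed by -0.04 (SE 0.02, adjusted p = 0.108) and Lipa, the lysosomal enzyme, by -0.16 (adjusted p = 0.116, limma). Lpl, the capillary enzyme, had 11.27, 11.74 and 12.16 log2 CPM on HFD and 9.13, 11.61 and 12.02 on RC, and differed by 0.21 (SE 0.08, adjusted p = 0.0644). Its lowest value was that of C57Bl/6J RC animal 1RC210, and its deviations followed the slow fibre markers with r = 0.93 over 72 libraries, a value that 1RC210 carried: without it r was 0.49 over 71. Without that library the Lpl difference was 0.14 (SE 0.04) and passed the test (adjusted p = 0.00562). Leaving it out gave 0.34 for Pnpla2, 0.32 for Lipe, 0.37 for Mgll and 0.37 for Pnpla3 (adjusted p = 0.0442), all still called.

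**Figure D2:**
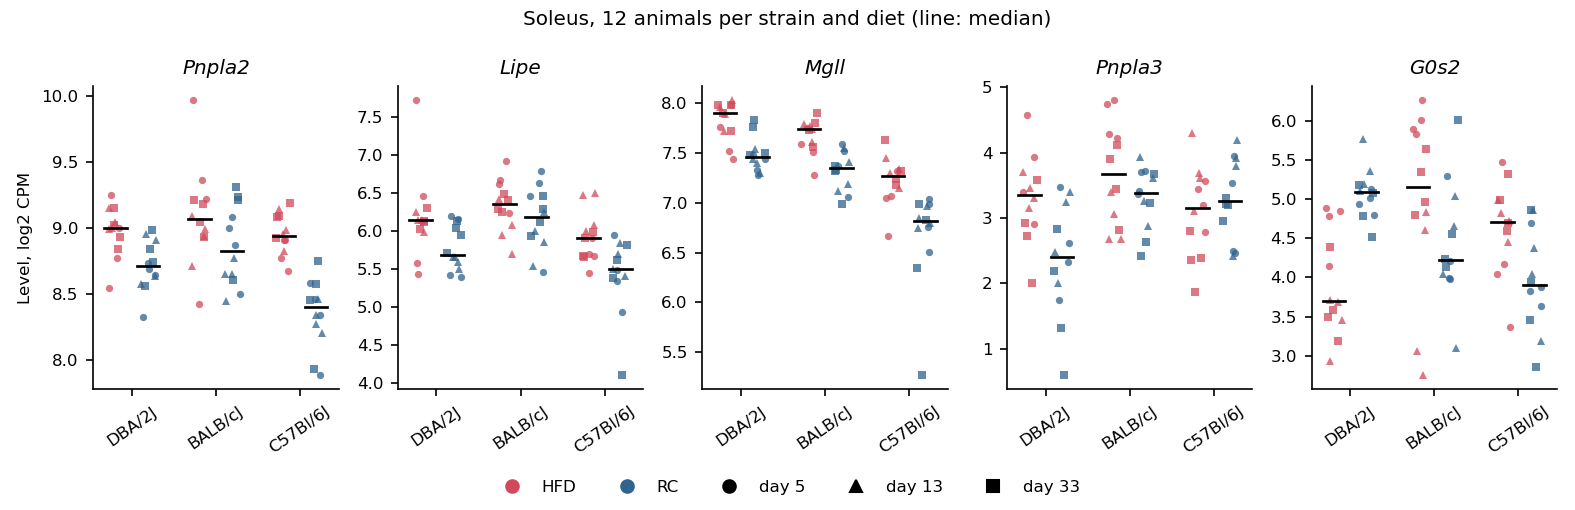
Soleus level of Pnpla2, Lipe, Mgll, Pnpla3 and G0s2 (log2 CPM, vertical axis) in each animal, by strain with HFD left of RC; marker shape gives the day and the line the median of 12 animals. G0s2 has medians of 3.70 on HFD and 5.10 on RC in DBA/2J, and 5.16 on HFD and 4.22 on RC in BALB/cJ.

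In liver, 2 of the 10 genes were called for diet over all animals, beside 21.2% of all genes: Pnpla2 was lower on HFD and Mgll higher. The median difference of the 10 genes was -0.02 and that of all genes 0.01. Pnpla2 thus fell in liver and rose in soleus, while Mgll rose in both tissues. The liver and soleus tables were normalized separately and this contrast between tissues was not tested.

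Pnpla2 had 5.64, 6.12 and 7.29 log2 CPM in HFD livers, against 5.68, 6.35 and 8.02 in RC livers (lowest, median and highest of 36 each). The ranges overlapped almost fully. The difference was -0.28 (SE 0.07, adjusted p = 0.00117, limma), lower on HFD in 8 of 9 combinations of strain and day. It was -0.22 in DBA/2J, -0.43 in BALB/cJ (adjusted p = 0.00709) and -0.20 in C57Bl/6J. In BALB/cJ on day 33 the HFD livers had 5.78, 5.86, 6.17 and 6.24 and the RC livers 6.22, 6.90, 6.94 and 7.21, an overlap of 1 animal on each side. Diet and animal number were nearly tied in this example. High numbers were on HFD (3HF256, 3HF258 and 3HF259) and low ones on RC (3RC208, 3RC209 and 3RC211). The exceptions, 3HF208 at 6.24 and 3RC259 at 6.22, were the overlapping animals, so these values do not separate diet from number range. Within the ranges of animal numbers the difference was -0.36 in the lower range (29 animals), -0.10 in the middle (18) and -0.12 in the upper (20).

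Mgll had 7.43, 7.99 and 9.09 log2 CPM in HFD livers, against 7.01, 7.61 and 9.01 in RC livers. The difference was 0.31 (SE 0.06, adjusted p = 2.47e-05, limma), higher on HFD in 7 of 9 combinations. It was 0.50 in DBA/2J (adjusted p = 7.25e-05), -0.01 in BALB/cJ and 0.43 in C57Bl/6J (adjusted p = 0.00334), and the test of a difference between strains gave adjusted p = 0.00926. On day 5 the DBA/2J livers had 8.24, 8.38, 8.41 and 8.57 on HFD and 7.55, 7.62, 7.63 and 7.78 on RC, with no overlap. BALB/cJ livers were high on both diets that day, with 8.28, 8.59, 8.87 and 9.09 on HFD and 8.30, 8.97, 9.01 and 9.01 on RC. Their Mgll differences went both ways later. On day 13 they had 7.99, 8.13, 8.14 and 8.32 on HFD and 7.45, 7.49, 7.73 and 7.81 on RC, with no overlap (difference 0.53, adjusted p = 0.209). On day 33 they had 7.85, 7.95, 7.99 and 8.40 on HFD and 8.08, 8.54, 8.66 and 8.67 on RC (difference -0.44, adjusted p = 0.077).

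Lipe and Lipg responded in DBA/2J liver. Lipe had 3.69, 4.24 and 4.53 log2 CPM on HFD and 4.26, 4.80 and 5.86 on RC in that strain (lowest, median and highest of 12), a difference of -0.60 (SE 0.17, adjusted p = 0.00532, limma). It was -0.12 in BALB/cJ and 0.15 in C57Bl/6J. Lipe is also an adipocyte gene, and in DBA/2J livers the mean of the 5 measured adipocyte markers was -5.05, -1.31 and 1.64 log2 CPM on HFD and -4.97, 0.47 and 4.44 on RC. Deviations of liver Lipe followed this mean with r = 0.55 over 72 libraries, and its part in the Lipe difference was not tested. Lipg, endothelial lipase, had 3.37, 4.02 and 4.93 log2 CPM on HFD and 2.04, 3.38 and 3.97 on RC in DBA/2J, a difference of 0.81 (SE 0.26, adjusted p = 0.017). It was -0.43 in BALB/cJ and 0.02 in C57Bl/6J. The DBA/2J Lipg groups did not overlap on days 5 and 13, and on day 33 HFD livers had 3.37, 3.45, 3.48 and 3.96, against 3.45, 3.54, 3.85 and 3.97 on RC.

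The strain comparisons called 3 of 10 genes for diet in DBA/2J liver (Lipe, Mgll and Lipg; 21.6% of all genes), 1 in BALB/cJ (Pnpla2; 14.8%) and 1 in C57Bl/6J (Mgll; 2.31%). A variation of the diet difference with strain was called for 4 of 10, beside 15.7% of all genes: Mgll, Lipg (adjusted p = 0.0337), G0s2 (adjusted p = 0.0481) and Lipe (adjusted p = 0.0499). Leaving out 1 animal in turn ended the Lipe call for 47 of 72 animals, the G0s2 call for 43 and the Lipg call for 7, and the Mgll call for none. G0s2 had 4.52, 6.32 and 7.01 log2 CPM on HFD and 4.68, 5.15 and 7.15 on RC in DBA/2J livers. In C57Bl/6J it had 3.18, 4.04 and 6.44 on HFD and 3.77, 4.83 and 5.90 on RC. The differences were 0.68 in DBA/2J (adjusted p = 0.0814) and -0.64 in C57Bl/6J (adjusted p = 0.307), neither past the test.

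Lipc, hepatic lipase, was the 1 gene of 10 whose diet difference varied with day (adjusted p = 0.0113, beside 3.35% of all genes). On day 5 the BALB/cJ livers had 6.47, 6.87, 6.95 and 7.19 log2 CPM on HFD and 7.40, 7.48, 7.54 and 7.69 on RC, with no overlap. On day 13 they had 7.55, 7.56, 7.61 and 7.75 on HFD and 7.39, 7.43, 7.50 and 7.56 on RC, and on day 33 7.40, 7.59, 7.74 and 7.76 on HFD and 7.32, 7.34, 7.40 and 7.44 on RC. In DBA/2J livers Lipc stayed between 7.52 and 7.84 in all 24 animals. Over all animals the diet differences of Lipc (-0.02), Abhd5 (0.07), Lpl (-0.20), Lipa (0.04) and Pnpla3 (-0.30) did not pass the test.

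**Figure D3:**
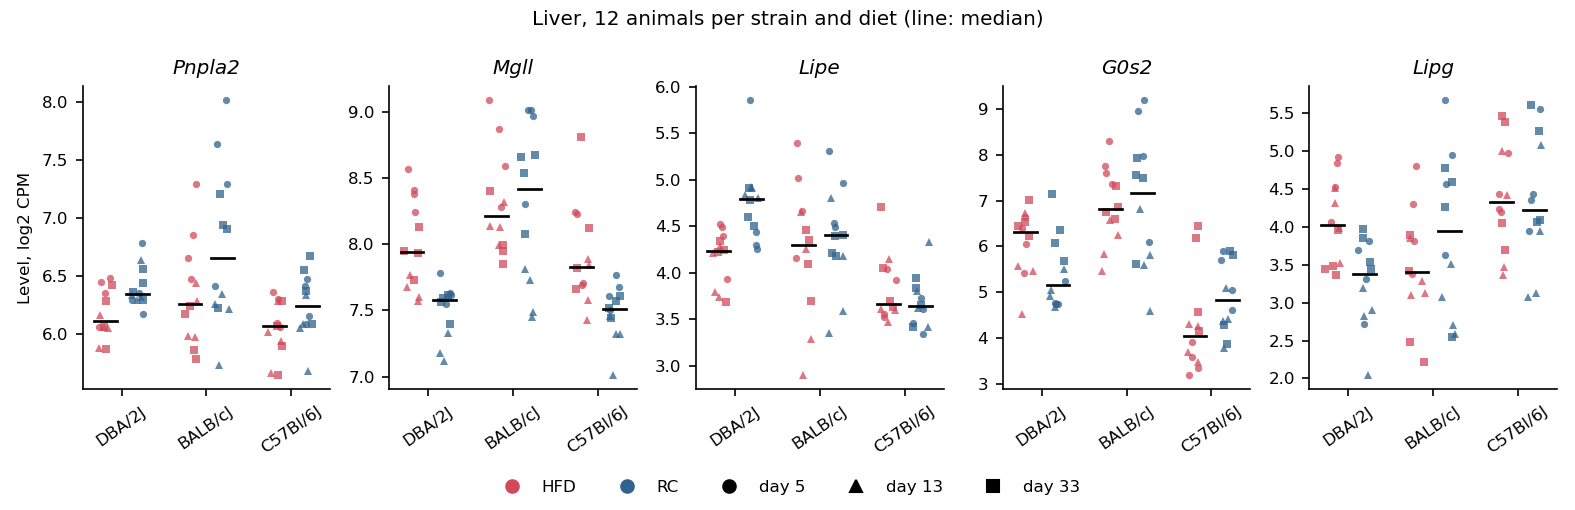
Liver level of Pnpla2, Mgll, Lipe, G0s2 and Lipg (log2 CPM, vertical axis) in each animal, by strain with HFD left of RC; marker shape gives the day and the line the median of 12 animals. In DBA/2J, Lipe has medians of 4.24 on HFD and 4.80 on RC, and Lipg 4.02 on HFD and 3.38 on RC.

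In visceral fat, Lipg was lower on HFD and no other member was called. It was 1 of 10 genes beside 2.67% of all genes, and without the 2 libraries with islet transcripts again 1 of 10, beside 3.59%. Lipg had -1.0, 1.48 and 5.85 log2 CPM in 34 HFD animals, against 0.60, 2.69 and 4.61 in 36 RC animals (lowest, median and highest). The difference was -1.08 (SE 0.20, adjusted p = 0.000459, limma) without these libraries and -1.30 (SE 0.24, adjusted p = 0.000763) with them. With all libraries it was below 0 in all 9 combinations of strain and day. Within the ranges of animal numbers, again with all libraries, it was -2.14, -0.81 and -1.0 in the lower, middle and upper range. Both libraries with islet transcripts fall in the lower range (29 animals), with Lipg at -0.61 and -1.85 log2 CPM. Values without them are not given for the ranges.

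By strain, Lipg had -0.85, 0.98 and 3.04 log2 CPM on HFD and 1.01, 2.24 and 3.23 on RC in DBA/2J. In BALB/cJ it had 1.43, 2.32 and 5.85 on HFD (10 animals) and 2.95, 3.65 and 4.61 on RC. In C57Bl/6J it had -1.0, 0.55 and 4.0 on HFD and 0.60, 1.73 and 3.16 on RC. Without the 2 libraries, the strain differences of -1.22, -0.98 and -1.03 did not pass the test singly. With all libraries the BALB/cJ difference did not pass either. It was -2.01 to -1.30 with 1 of 24 animals left out in turn, and passed for 8 of them. On day 33, C57Bl/6J fat had -1.0, -0.65, -0.01 and 0.42 on HFD and 0.60, 0.87, 1.19 and 1.20 on RC, and DBA/2J fat had -0.85, -0.60, 0.51 and 1.17 on HFD and 1.5, 2.5, 2.88 and 3.23 on RC, with no overlap in either strain.

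For diet within a strain, limma called 0 of 10 genes in DBA/2J fat (0.411% of all genes), 0 in BALB/cJ (0.435%) and 0 in C57Bl/6J (0.115%). Without the 2 libraries it again called 0 in each, beside 1.0%, 0.0% and 0.236% of all genes in the same strains. At an unadjusted p below 0.05 there was 1 of 10 in DBA/2J, 8 in BALB/cJ and 1 in C57Bl/6J. In BALB/cJ that count was 2 of 10 without the 2 libraries. With voom weights 1 was called in BALB/cJ and 0 in each of the other two strains. A variation of the diet difference with strain was called for 0 of 10 (0.0846% of all genes, 6 of 10 at an unadjusted p below 0.05, 0 with voom weights). Without the 2 libraries it was again 0 (0.0967%), with 2 at an unadjusted p below 0.05, G0s2 and Lpl. A variation with day was called for 0 of 10 and for 0.0% of all 16541 genes tested, with 1 of 10 at an unadjusted p below 0.05 and 0 with voom weights, and again for 0 and 0.0% without the 2 libraries.

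The fat libraries fell on 2 sides of a gap in B cell markers, and the droplet lipases moved with it. The mean of 5 B cell markers was at most 2.89 log2 CPM in 30 libraries and at least 6.15 in 40, and no library lay between. Of the libraries above the gap, 19 were among the 34 HFD and 21 among the 36 RC animals. By strain, HFD and RC libraries above the gap numbered 4 of 12 and 3 of 12 in DBA/2J, 7 of 10 and 8 of 12 in BALB/cJ, and 8 of 12 and 10 of 12 in C57Bl/6J. Over 70 libraries, deviations from group means followed the B cell mean with r = -0.88 for Mgll, -0.87 for Lipe, -0.87 for Lpl, -0.85 for Pnpla2, 0.76 for Lipc and -0.04 for Lipg. Against the adipocyte marker mean, Lipe had r = 0.97, Mgll 0.96, Lpl 0.95, Abhd5 0.94 and Pnpla2 0.92. All points share the libraries and their depth, and log2 CPM values of a library are shares of one total.

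Libraries above the gap had a median of 9.49 log2 CPM for Lipe, against 11.2 in those below it. For Lpl the medians were 12.07 above and 13.42 below, for Pnpla2 9.88 above and 11.29 below, and for Lipc 1.39 above and -1.16 below. Lipg stood at 2.0 above and 1.81 below. Fits with the B cell mean as a covariate are given below, for strain differences on RC and as counts of genes called. What lymphoid cells contribute to the values of the other members was not tested beyond these fits.

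**Figure D4:**
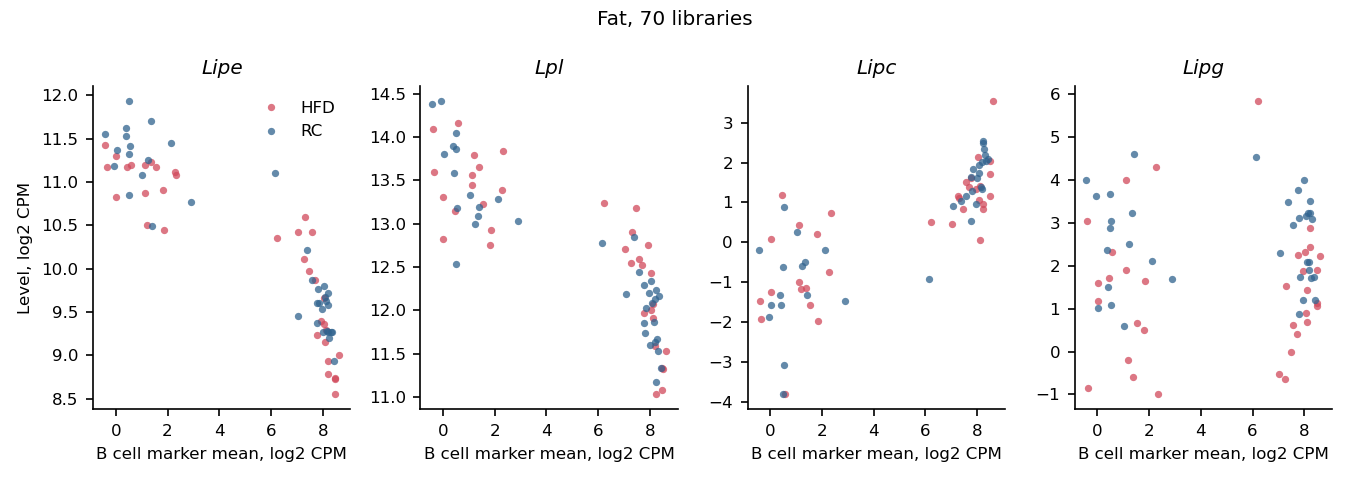
Fat level of Lipe, Lpl, Lipc and Lipg (log2 CPM, vertical axis) against the mean of 5 B cell markers (log2 CPM, horizontal axis) in 70 libraries. No library lies between 2.89 and 6.15 on the horizontal axis; Lipe and Lpl are lower and Lipc higher to the right, and Lipg has r = -0.04.

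**Figure D5:**
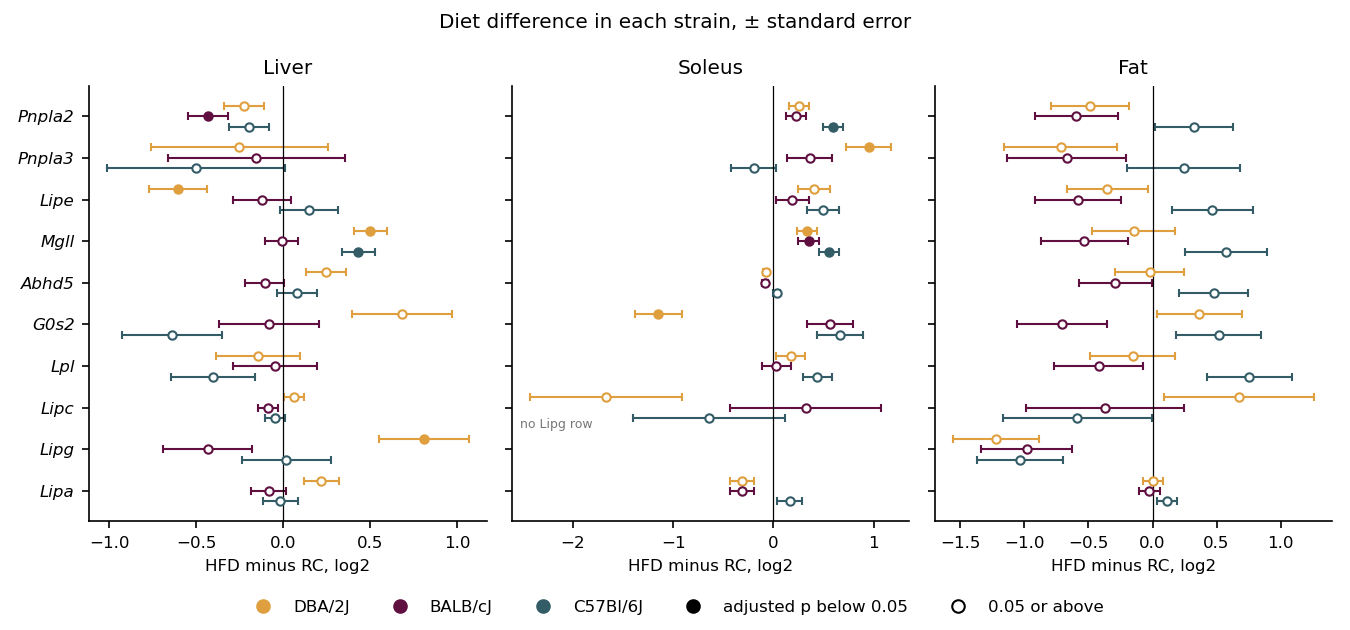
Diet difference (HFD minus RC, log2 scale) of each gene in each strain and tissue with its standard error; filled points have adjusted p below 0.05 by limma, and fat is without the 2 libraries with islet transcripts. Soleus G0s2 is at -1.15 in DBA/2J, 0.56 in BALB/cJ and 0.67 in C57Bl/6J.

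On RC the strains differed in many of these genes, as they did over all genes. In liver, DBA/2J against C57Bl/6J called 5 of 10 (48.1% of all genes), BALB/cJ against C57Bl/6J 6 of 10 (46.8%) and BALB/cJ against DBA/2J 8 of 10 (42.1%). The first 2 shares were near their background. G0s2 differed most between BALB/cJ and C57Bl/6J: BALB/cJ livers had 4.58, 7.16 and 9.21 log2 CPM, against 4.68, 5.15 and 7.15 in DBA/2J and 3.77, 4.83 and 5.90 in C57Bl/6J. BALB/cJ exceeded C57Bl/6J by 2.08 (SE 0.29, adjusted p = 1.41e-08, limma) and DBA/2J by 1.57. Lpl was low in BALB/cJ livers, with 2.49, 3.33 and 4.33, against 4.24, 5.23 and 6.97 in DBA/2J and 4.52, 5.10 and 5.99 in C57Bl/6J. The BALB/cJ and C57Bl/6J Lpl groups did not overlap, and the difference was -1.71 (SE 0.24, adjusted p = 2.78e-08).

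Among the droplet enzymes in RC livers, BALB/cJ exceeded C57Bl/6J in Mgll by 0.82 and DBA/2J by 0.81. Pnpla2 was higher in BALB/cJ by 0.52 and 0.36 in the same pairs. Lipe had 4.26, 4.80 and 5.86 log2 CPM in DBA/2J livers, 3.36, 4.40 and 5.31 in BALB/cJ and 3.34, 3.64 and 4.33 in C57Bl/6J. It exceeded C57Bl/6J by 1.08 in DBA/2J (adjusted p = 1.92e-07) and by 0.69 in BALB/cJ (adjusted p = 0.000502, limma). The BALB/cJ minus DBA/2J difference of -0.39 was at the threshold, and leaving out any of 17 of 24 animals ended the call. For Lipg, DBA/2J minus C57Bl/6J was -1.10 and BALB/cJ minus DBA/2J was 0.63, the second call lost for 12 of 24 animals left out.

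The remaining liver strain differences on RC were small. Abhd5 was lower than in C57Bl/6J by 0.31 in DBA/2J and in BALB/cJ (adjusted p = 0.0213 each, limma). Leaving out C57Bl/6J RC animal 1RC252 ended both Abhd5 calls, and BALB/cJ RC animal 3RC228 ended the second. For Lipc, DBA/2J minus C57Bl/6J was 0.17 and BALB/cJ minus DBA/2J was -0.20. For Lipa, DBA/2J minus C57Bl/6J was -0.27, a call that C57Bl/6J RC animals 1RC226 and 1RC227 ended when left out, and BALB/cJ minus DBA/2J was 0.49.

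In soleus on RC, DBA/2J against C57Bl/6J called 4 of 9 genes (37% of all genes), BALB/cJ against C57Bl/6J 5 of 9 (44.5%) and BALB/cJ against DBA/2J 5 of 9 (40.4%). Mgll was lowest in C57Bl/6J, by 0.81 against DBA/2J and 0.64 against BALB/cJ, and so was Pnpla2, by 0.36 and 0.51. With 1 of 24 animals left out in turn, 1RC210 among them, the Mgll differences were 0.69 to 0.88 and 0.52 to 0.71, all called. Pnpla3 was lowest in DBA/2J, at 0.59, 2.40 and 3.48 log2 CPM, against 2.41, 3.38 and 3.94 in BALB/cJ and 2.42, 3.26 and 4.19 in C57Bl/6J. G0s2 was highest in DBA/2J, 1.10 above C57Bl/6J (adjusted p = 0.000107, limma), and BALB/cJ was 0.64 below DBA/2J (adjusted p = 0.0248). Leaving out BALB/cJ RC animals 3RC209 or 3RC255 ended the second G0s2 call.

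BALB/cJ soleus had more Lipa than both other strains, by 0.59 each, and more Abhd5, by 0.14 each. Deviations of soleus Lipa followed the hepatocyte marker mean with r = 0.41 over 72 libraries. On RC that mean had medians of 1.19 in BALB/cJ, 4.37 in DBA/2J and 3.76 in C57Bl/6J. Its part in the Lipa differences was not tested. For Lipe, BALB/cJ minus C57Bl/6J was 0.72, and 0.60 to 0.82 with 1 of 24 animals left out in turn, 1RC210 among them. Lipc, near the detection limit, was called between BALB/cJ and DBA/2J at -1.93 (adjusted p = 0.0358, limma), a call lost for 10 of 24 animals left out. Its size depends on the prior count behind the log2 values, since 17 of the 72 libraries had 0 Lipc reads. Without C57Bl/6J RC animal 1RC210, the Lpl difference from C57Bl/6J was -0.23 for DBA/2J (adjusted p = 0.00257) and -0.39 for BALB/cJ (adjusted p = 1.07e-06). With that library these Lpl differences were 0.00 and -0.16 and did not pass the test.

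In fat on RC, DBA/2J against C57Bl/6J called 4 of 10 genes (41.7% of all genes), and 6 of 10 without the 2 libraries (51.4%). The 2 libraries are HFD libraries, so their removal changed the error and not the RC differences. The 4 were Mgll at 1.48, Lipe at 1.22, Pnpla2 at 0.97 and Lipc at -1.88. With all libraries, leaving out single animals ended the Pnpla2 call for 18 of 24 and the Lipe call for 11 of 24. With the B cell mean as a covariate, chosen after seeing the data, Mgll was at 0.51 (adjusted p = 0.024), Lipe at 0.28 (adjusted p = 0.281), Pnpla2 at 0.08 (adjusted p = 0.805) and Lipc at -0.35 (adjusted p = 0.618, limma). BALB/cJ against C57Bl/6J called 1 of 10 (11.2%), or 3 without the 2 libraries (16%), and BALB/cJ against DBA/2J called 1 of 10 with (16.2%) and without them (24.8%). Lipg was called in each, 1.91 above C57Bl/6J (adjusted p = 0.000784) and 1.48 above DBA/2J (adjusted p = 0.011), with adjusted p = 1.55e-05 and 0.00087 without the 2 libraries, and was 1.89 and 1.51 with the covariate.

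From day 5 to day 33 on HFD, 3 of 10 genes were called in liver, beside 5.48% of all genes. Day 33 minus day 5 was -0.40 for Pnpla2 (adjusted p = 0.0247), -0.33 for Mgll (adjusted p = 0.0273) and 0.20 for Lipc (adjusted p = 0.0204, limma). Single animals ended these calls: C57Bl/6J HFD animal 1HF259, DBA/2J HFD animal 2HF210 or BALB/cJ HFD animal 3HF203 for Pnpla2, C57Bl/6J HFD animal 1HF225 or BALB/cJ HFD animal 3HF203 for Lipc, and 8 of 36 animals for Mgll. On RC limma called 0 of 10 (0.666% of all genes), with 0 at an unadjusted p below 0.05 and 0 with voom weights.

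In soleus on HFD, day 33 against day 5 called 1 of 9 genes (12.5% of all genes), Pnpla3 at -0.91 (SE 0.22, adjusted p = 0.00524, limma). C57Bl/6J animals on HFD had 2.78, 3.2, 3.44 and 3.56 log2 CPM of Pnpla3 on day 5 and 1.87, 2.36, 2.39 and 2.80 on day 33. BALB/cJ animals had 4.22, 4.28, 4.75 and 4.81 on day 5 and 2.82, 3.45, 3.90 and 4.12 on day 33, and in BALB/cJ the days did not overlap. DBA/2J animals had 2.90, 3.39, 3.94 and 4.57 on day 5 and 2.0, 2.73, 2.93 and 3.58 on day 33. The adipocyte marker mean of the same BALB/cJ libraries was 4.79 to 5.64 on day 5 and 4.15 to 4.82 on day 33, in C57Bl/6J 3.55 to 3.82 and 3.23 to 4.29, and in DBA/2J 3.30 to 6.80 and 3.12 to 4.30. With that mean as a covariate, day 33 minus day 5 was -0.64 for Pnpla3 (adjusted p = 0.00751). On RC limma called 0 of 9 (2.85% of all genes), with 1 at an unadjusted p below 0.05 and 0 with voom weights. In fat on HFD, 1 of 10 was called with all libraries (0.0484%) and without the 2 (0.212%), Lipg at -1.98 (SE 0.35, adjusted p = 0.00993) without them and -1.95 (adjusted p = 0.0476) with them, a call that leaving out any of 22 of the 36 HFD animals ended. On RC limma called 0 of 10 with all libraries (0.0181%) and without the 2 (0.0242%), with 0 at an unadjusted p below 0.05 in both and 0 with voom weights.

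A list of partner genes, covering droplet proteins, regulators of the vascular lipases, lysosomal proteins and transcription factors, was counted beside the members. In liver 2 of 50 were higher on HFD (10.9% of all genes) and 11 lower (10.3%), with a median of -0.05. Apoc3, an inhibitor of lipoprotein clearance, was lower by 0.27 (adjusted p = 0.000654) and Npc2, a lysosomal cholesterol carrier, by 0.19 (adjusted p = 0.00269). Prkacb, a catalytic subunit of protein kinase A, was lower by 0.14 (adjusted p = 0.000662, limma).

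In soleus 6 of 52 partners were higher (8.98%) and 3 lower (8.39%), with a median of 0.01. The 6 higher genes were all among the 20 on the droplet side, as were 2 of the 3 lower ones, Plin3 at -0.20 and Prkacb at -0.09. Plin5, a droplet coat protein of oxidative tissue, was higher by 0.76 (adjusted p = 9.66e-07), Cidea, a droplet fusion protein, by 0.73 (adjusted p = 3.45e-06), the glycerol channel gene Aqp7 by 0.37 (adjusted p = 0.0002) and the fatty acid carrier Fabp4 by 0.35 (adjusted p = 0.000637, limma). Plin1, one of the 6, is also on the adipocyte marker list, and Cidea, Aqp7 and Fabp4 are known adipocyte genes. With the adipocyte marker mean as a covariate, 5 were higher and 2 lower: Plin1 was at 0.07 (adjusted p = 0.456), Plin5 at 0.73, Cidea at 0.62, Aqp7 at 0.29 and Fabp4 at 0.17 (adjusted p = 0.00751). In fat 1 of 54 was higher (1.63%) and 1 lower (1.03%), with a median of -0.10. Without the 2 libraries 2 were higher (2.07%) and 1 lower (1.52%). Cidea was at -1.28 in fat (adjusted p = 0.00848) and Hilpda, a hypoxia-induced inhibitor of adipose triglyceride lipase, at 0.56 (adjusted p = 0.000763). Without the 2 libraries they were at -1.07 (adjusted p = 0.0122) and 0.54 (adjusted p = 0.0012).

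Genes with the pattern most like a member were found by the correlation of deviations from the 18 group means, as a description over libraries that share their depth. In liver Pnpla2 was nearest to Cpt1a, the gate enzyme of mitochondrial fat oxidation (r = 0.76 over 72 libraries), Pnpla3 to Pnpla5 (r = 0.82) and Mgll to the peroxisomal enzyme gene Hsd17b4 (r = 0.73). In soleus Pnpla2 was nearest to Plin5 (r = 0.81), Lipe to Fabp4 (r = 0.80) and Pnpla3 to the adipocyte hormone gene Retn (r = 0.71). Lpl was nearest to Ldhb, a lactate dehydrogenase gene, with Pearson's r = 0.94 and Spearman's rho = 0.66. In fat Lipe was nearest to Fitm2 (r = 0.98 over 70 libraries). Between members, Pnpla2 and Lipe had r = 0.60 in liver and 0.61 in soleus.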

How the data were processed

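Polyadenylated RNA of liver, soleus and visceral fat was sequenced, and 72 libraries per tissue were used. The deposited values are log2 CPM: the authors scaled read counts to library size with a factor per library, worked out here from the values, and the submitters' processing notes name STAR 2.5.3a, edgeR and build GRCm38. The read counter and the filter on low counts are not given in the sources used here. Whole reads were recovered from the values and served for depth and voom weights. This was tested up to 2000 reads, where 100% were whole numbers to within 0.05 of a read.

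For each tissue, limma 3.58.1 in R 4.3.3 was fitted to the deposited log2 values with a mean per group (18 groups of 4 animals) and a variance trend, on genes with log2 CPM of at least 0 in at least 4 animals. P-values were adjusted over all genes tested by the Benjamini-Hochberg method. The members and gene lists were chosen with earlier results of these data known. The text names all 10 members, up to 4 partner genes of smallest p per tissue, and the genes most correlated with a member. One partner gene that this rule names in liver is not reported here. The fits were checked on simulated data. Alternatives were other filters, scalings, prior counts, weights, covariates, a replicate block and leaving out each animal. Libraries and covariates named as chosen after seeing the data were added later.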

Additional observations from a re-analysis of the deposited data

Results flagged for a closer look

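Of 522 groups of 4 animals examined over the members, 35 held an animal far from the other 3, by the gap to the nearest of the others over the whole range. Chance gives about 1 in 20 groups, so most single cases carry little weight.

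In fat, DBA/2J RC animal 2RC231 (day 13) was alone in its group above the gap in B cell markers, with a mean of 8.26 (0.52 to 2.13). This animal was below the other 3 animals of its group in 6 genes. It had 9.56 log2 CPM of Pnpla2 where the others had 11.18 to 11.48, 7.02 of Pnpla3 (10.24 to 10.3), 9.2 of Lipe (11.33 to 11.45), 8.47 of Mgll (10.68 to 10.99), 5.56 of Abhd5 (7.45 to 7.58) and 5.45 of G0s2 (6.92 to 7.17). BALB/cJ HFD animal 3HF208 (day 33), 1 of the 2 libraries with islet transcripts, had 6.12 of Pnpla2 (9.12 to 9.54), 1.79 of Pnpla3 (7.33 to 7.5), 4.25 of Lipe (8.73 to 9.16) and 4.64 of Lipa (6.43 to 6.45). The other, 3HF201 (day 5), had 4.08 of Lipa (6.51 to 6.71).

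Elsewhere in fat, C57Bl/6J RC animal 1RC226 had 9.63 of Pnpla2 (10.03 to 10.06) and BALB/cJ RC animal 3RC211 had 10.27 (11.47 to 11.62). DBA/2J HFD animal 2HF255 had 10.43 of Lipe (11.17 to 11.3) and C57Bl/6J RC animal 1RC254 had -1.46 of Lipc (1.84 to 2.04). C57Bl/6J HFD animal 1HF225 had 4.0 of Lipg (1.52 to 1.9). For Lipa, C57Bl/6J HFD animal 1HF231 had 6.72 (6.26 to 6.31) and C57Bl/6J RC animal 1RC256 had 6.55 (6.28 to 6.32). By the B cell mean, 2HF255 was alone in its group above the gap (7.57). Alone below it in their groups were 1RC254 (2.89), 1RC256 (1.03) and 1HF231 (1.19). Animals 1RC226, 3RC211 and 1HF225 were not alone on their side. The part of lymphoid content in these cases was not tested.

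In soleus, C57Bl/6J RC animal 1RC210, with few slow fibre transcripts, had 9.13 of Lpl (11.8 to 12.02), and DBA/2J RC animal 2RC203 had 11.71 (11.43 to 11.46). BALB/cJ RC animal 3RC251 had 5.29 of G0s2 (3.98 to 4.21) and 3.77 of Lipa (4.53 to 4.69). DBA/2J HFD animal 2HF203 had 4.15 of G0s2 (4.78 to 4.89). BALB/cJ RC animal 3RC259 had 8.6 of Pnpla2 (9.21 to 9.31) and BALB/cJ RC animal 3RC209 had 6.99 of Mgll (7.32 to 7.37). For Abhd5, C57Bl/6J HFD animal 1HF209 had 6.03 (5.92 to 5.94) and BALB/cJ HFD animal 3HF230 had 5.97 (5.85 to 5.87). C57Bl/6J RC animal 1RC235 had 0.96 of Lipc (-3.74 to -3.11).

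In liver, DBA/2J HFD animal 2HF210 had 3.69 of Lipe (4.23 to 4.34) and DBA/2J RC animal 2RC200 had 5.86 (4.26 to 4.44). DBA/2J RC animal 2RC231 had 6.64 of Pnpla2 (6.29 to 6.33) and DBA/2J RC animal 2RC203 had 5.25 of G0s2 (4.73 to 4.76). BALB/cJ RC animal 3RC251 had 8.3 of Mgll (8.97 to 9.01) and 7.9 of Lipa (8.19 to 8.24), and DBA/2J HFD animal 2HF201 had 8.26 of Lipa (8.08 to 8.1).

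The diet difference varied between strains, by limma's test of the interaction, for liver Mgll (adjusted p = 0.00926), Lipg (adjusted p = 0.0337), G0s2 (adjusted p = 0.0481) and Lipe (adjusted p = 0.0499), and for soleus G0s2 (adjusted p = 0.000185) and Pnpla3 (adjusted p = 0.035). It varied between days for liver Lipc (adjusted p = 0.0113).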

How the results depend on the processing

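Over 15530 single values of members recomputed under the alternatives, 15139 kept their direction and side of the threshold, 269 lost a call, 122 gained one and 0 called values changed sign. Counts of members called moved by more than 1.5 times as follows, and the cause was not tested unless stated. With only the strain's own animals, 7 genes were called for diet in DBA/2J liver (3 before) and 0 in BALB/cJ liver (1 before). The liver test between strains called 2 (4 before) without a variance trend and with voom weights. With the range of animal numbers as a covariate, DBA/2J against C57Bl/6J on RC called 2 in liver, and diet in BALB/cJ fat called 5.

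With the adipocyte mean as a covariate, soleus called 2 for diet over all animals, 1 for diet in DBA/2J, 1 between strains and 2 for day 33 against day 5 on HFD. That last count was also 2 without C57Bl/6J RC animal 1RC210. The stricter filter on low values gave 4 for diet in C57Bl/6J soleus, 1 between strains, 3 for BALB/cJ against DBA/2J on RC and 0 for day 33 against day 5 on HFD. In soleus this filter ended no call of a gene it kept, and the lower counts came from Pnpla3 and Lipc, which it left out. In fat it gave 0 for diet over all animals, for BALB/cJ against C57Bl/6J or DBA/2J on RC, and for day 33 on HFD, since Lipg was not tested there. Another prior count and voom weights also gave 0 for day 33 on HFD in fat. Voom weights gave 1 for diet in BALB/cJ fat and 2 for DBA/2J against C57Bl/6J on RC, as did quantile normalization (2). Without the 2 libraries with islet transcripts, BALB/cJ against C57Bl/6J on RC called 3 in fat. With the B cell mean as a covariate as well, fat called 1 for diet in DBA/2J, 1 for DBA/2J against C57Bl/6J, 4 for BALB/cJ against C57Bl/6J and 3 for BALB/cJ against DBA/2J on RC.

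Leaving out 1 animal in turn gave 1 to 4 genes for the liver test between strains and 1 to 3 for day 33 against day 5 on HFD. In soleus it gave 1 to 3 for diet in BALB/cJ, 2 to 5 for diet in C57Bl/6J, 1 to 3 between strains and 3 to 6 for BALB/cJ against DBA/2J on RC. In fat it gave 0 to 7 for diet in BALB/cJ, 2 to 5 for DBA/2J and 1 to 2 for BALB/cJ against C57Bl/6J on RC, and 0 to 1 for day 33 on HFD. In soleus, the 5 and 4 for diet in C57Bl/6J came without C57Bl/6J RC animals 1RC256 and 1RC235, and the 3 for BALB/cJ against DBA/2J without BALB/cJ RC animal 3RC209. For diet in BALB/cJ fat, leaving out BALB/cJ HFD animals 3HF202 and 3HF224 singly gave 7 and 5.

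Animals on both diets share some replicate numbers. Of 20 same-numbered pairs per tissue, 12 in liver, 7 in soleus and 4 in fat had deviations correlated above 0.1. The median correlation was 0.13 in liver, 0.002 in soleus and -0.36 in fat. The numbers were not taken as pairs, so the main tests leave out any likeness of same-numbered liver animals. With a replicate block, the counts changed only for BALB/cJ against DBA/2J on RC in liver (7, with 8 before; Lipe at -0.37 was lost) and for DBA/2J against C57Bl/6J on RC in fat (3, with 4 before; Pnpla2 at 0.95 was lost). Depth limits Lipc in soleus, with a median of 2.5 reads.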
